A study of Mus musculus with 18 samples.

Results

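The 10 cytokine genes described here, which epithelia can use to alert or sustain immune cells, were followed across cells sorted from the mouse trachea. The genes were *Il25*, *Il33*, *Tslp*, *Il18*, *Il1a*, *Il34*, *Csf1*, *Csf2*, *Il6* and *Tgfb1*. They were chosen by symbol and make up 10 of the 26327 genes in the count table. RNA was sequenced from brush cells (7 libraries, sorted as CD45- EpCAM+ eGFP+), EpCAM+ epithelial cells (7 libraries, CD45- EpCAM+) and CD45+ hematopoietic cells (4 libraries). Every mouse was naïve, on a B6 background and carried the transgene Tg(RP23-268L19-EGFP)2Mik, a bacterial artificial chromosome that expresses eGFP from the choline acetyltransferase (*Chat*) locus, so all groups share it and a brush cell is defined by eGFP. The EpCAM+ gate as labelled does not exclude eGFP+ cells. The sources used here give no ages and do not say whether libraries of one group are from separate animals. The p-values then reflect only how these libraries vary, which may be technical.

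Alarmins are cytokines with which barrier epithelia signal damage, allergens or parasites to immune cells. IL-25, IL-33 and TSLP act on group 2 innate lymphoid cells and other cells of type 2 immunity, and brush cells, called tuft cells in the intestine, are known as a source of IL-25. IL-33, IL-18 and IL-1α belong to the IL-1 family and lack a conventional secretion signal, so their release depends on processing or cell damage. IL-34 and CSF-1 share the receptor CSF1R and maintain macrophages, GM-CSF (*Csf2*) acts on macrophages, dendritic cells and granulocytes, IL-6 signals through gp130, and TGF-β1 is secreted in a latent form that must be activated outside the cell.

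Upstream sequences from RefSeq (GRCm38.p6) were held for 7 of the 10 genes, in 8 windows. The 3 below are shown because *Il18* was high in brush cells, *Il33* was the epithelial alarmin lower there, and *Il6* was counted in no brush library. Each line gives the 250 bases before the start, 5′ to 3′ on the + strand. Capitals mark matches to 3 motifs searched on both strands and picked after the windows had been read: the octamer ATGCAAAT bound by POU factors, a family that includes the brush cell factor POU2F3, the AP-1 motif TGANTCA, and the NF-κB motif, which reads GGGA, any base, then TTTCC.
Il18, chr9:50554450-50554699: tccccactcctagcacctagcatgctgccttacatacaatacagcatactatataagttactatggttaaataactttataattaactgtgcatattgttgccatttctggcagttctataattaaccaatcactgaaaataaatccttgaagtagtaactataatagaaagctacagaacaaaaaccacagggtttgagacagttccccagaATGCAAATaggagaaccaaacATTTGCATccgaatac
Il33 second start, chr19:29945540-29945789: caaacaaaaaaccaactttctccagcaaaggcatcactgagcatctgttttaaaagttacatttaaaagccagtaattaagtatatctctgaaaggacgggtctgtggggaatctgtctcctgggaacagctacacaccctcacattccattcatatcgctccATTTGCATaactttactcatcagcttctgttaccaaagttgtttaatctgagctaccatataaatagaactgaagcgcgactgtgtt
Il6, chr5:30012864-30013113: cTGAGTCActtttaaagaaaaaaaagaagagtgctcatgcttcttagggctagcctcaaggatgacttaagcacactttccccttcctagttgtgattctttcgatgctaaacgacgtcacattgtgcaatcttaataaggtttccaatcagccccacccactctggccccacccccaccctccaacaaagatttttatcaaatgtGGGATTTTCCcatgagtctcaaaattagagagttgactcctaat

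The *Il18* window holds 2 octamers, beginning 37 and 16 bases before the RefSeq start, one on each strand. The window of the second *Il33* start holds 1 octamer, 87 bases before it. An octamer occurs in 1.74% of all 32851 windows of 300 bases (250 before and 50 after a start). The *Il6* window holds an AP-1 match, present in 7.81% of windows, and an NF-κB match, present in 0.41%. *Il1a* had 1 AP-1 match and *Csf1* 1 NF-κB match, and the windows of *Tgfb1*, *Csf2* and the first *Il33* start held none of these motifs. A match describes letters and is not a binding site.

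Brush libraries held 838328 to 6031711 counts each, EpCAM+ libraries 2442601 to 6087184 and CD45+ libraries 371652 to 7438791. In the shallowest, CD45+ replicate 1, a single count is 2.87 CPM (counts scaled to library size). That library, brush replicate 4 and EpCAM+ replicate 5 stood apart from their groups, with median Spearman correlations to their own group of 0.759, 0.849 and 0.810. Defining markers lay in the groups so labelled. Brush libraries had a summed CPM over 6 brush cell markers of 8340 to 9773, EpCAM+ libraries of 8.07 to 33.7 and CD45+ libraries of 0 to 57.8. The sum of 6 pan-leukocyte markers was 79.2 to 222 in brush, 8.76 to 41.0 in EpCAM+ and 5939 to 6714 in CD45+ libraries. Basal cell markers summed to 52.4 to 173 CPM in brush, 3594 to 5511 in EpCAM+ and 2.87 to 59.8 in CD45+ libraries, and club and goblet markers to 367 to 3329, 32888 to 152870 and 259 to 1468. EpCAM+ libraries also had higher sums of the fibroblast and mesenchymal markers (4.35 to 28.3 CPM in brush, 251 to 519.8 in EpCAM+ and 5.23 to 36.0 in CD45+ libraries) and of the endothelial and mesothelial markers (3.99 to 77.5, 131 to 1189 and 16.8 to 106). Some of these sums rest on few genes. *Pecam1*, *Cdh5*, *Kdr* and *Tie1* had 5, 0, 2 and 0 counts in EpCAM+ libraries, and *Pdgfra* had 200 in brush and 2 in EpCAM+ libraries. Muscle and cartilage markers summed higher in brush libraries (257 to 414, 3.50 to 29.5 and 0 to 4.74). That sum rests mostly on *Sox9*, with 9499 counts in brush, 201 in EpCAM+ and 0 in CD45+ libraries. *Myh11*, *Des* and *Col2a1* had 7, 6 and 1 counts in brush and 16, 7 and 75 in EpCAM+ libraries. Mast cell and basophil markers summed higher in brush than in EpCAM+ libraries (102 to 195, 9.56 to 25.3 and 130 to 963). Of these, 6 of 7 were at 0 in brush, and only *Kit* was counted there. The part of these markers in the brush to EpCAM+ differences was not tested.

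By counts, brush cells differed from EpCAM+ cells in most of these cytokines, in both directions. At an adjusted p below 0.05 in edgeR's quasi-likelihood test, 7 of the 9 genes that could be tested were called: *Il25*, *Il18* and *Csf2* were higher in brush cells, *Il33*, *Csf1*, *Il6* and *Tgfb1* were lower, and *Il1a* and *Il34* passed no threshold. Of all 13418 genes tested, 40.3% were called in this comparison, 18.3% higher and 22% lower. The permutation test of TPM, described below, called *Il25*, *Il18*, *Csf1* and *Il6* between brush and EpCAM+ cells, but not *Il33*, *Tgfb1* or *Csf2*. Against CD45+ cells, *Il25* and *Il34* were higher in brush cells and *Il1a*, *Csf1*, *Csf2*, *Il6* and *Tgfb1* were lower, beside 45.8% of all genes called. In EpCAM+ cells against CD45+ cells, *Il33* and *Il34* were higher and *Il18*, *Il1a*, *Csf2*, *Il6* and *Tgfb1* were lower, beside 40.5% of all genes called. The median log2 fold change of the 9 genes was 1.11 for brush over EpCAM+ cells, -2.92 for brush over CD45+ cells and -2.74 for EpCAM+ over CD45+ cells, against -0.06, 0.05 and 0.08 over all genes tested, and these medians were the same with groups at 0 counts set at their bound.

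Not every gene had an equal chance of entering the test. The filter asked for about 2.43 CPM in at least 4 libraries. *Il25* passed through brush libraries alone, *Il1a*, *Csf2* and *Tgfb1* through CD45+ libraries alone, and *Il6* through 3 CD45+ libraries and 1 EpCAM+ library, so a difference in those genes was built into their passing. *Tslp* reached that level in 3 libraries and was not tested. In bulk RNA, fewer cells of a type and less RNA per cell cannot be told apart. Without the 3 libraries that stand apart, 10 genes were tested and 8, 7 and 8 were called in the 3 comparisons.

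**Figure D1:**
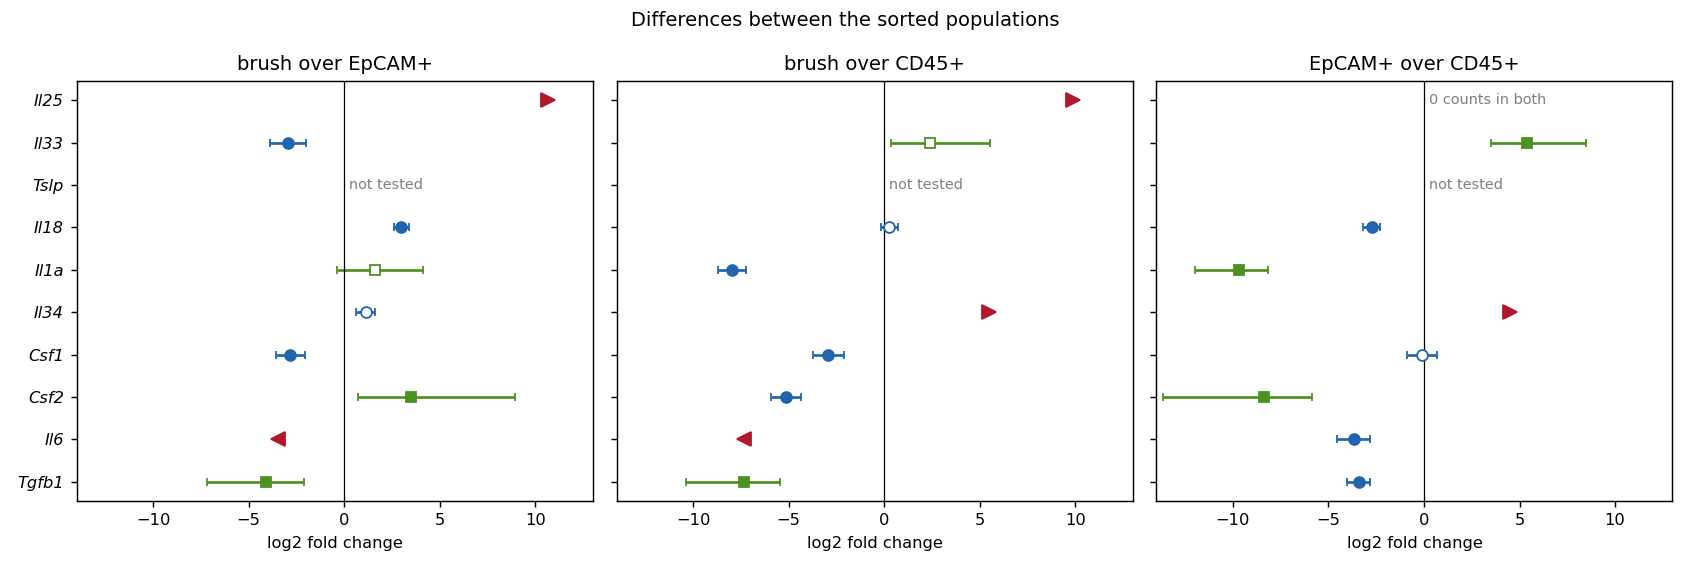
Log2 fold changes of the 10 cytokine genes in the 3 comparisons (x axis, log2, first-named group over second). Blue circles are edgeR estimates ± SE, red triangles are bounds where one group has 0 counts (3 counts taken for that group), green squares are ratios of summed counts with exact 95% counting intervals where a group has 1 to 3 counts, and filled symbols are called at an adjusted p below 0.05. *Il25* lies at the far right against both other groups, with bounds of 1620-fold and 929-fold.

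*Il25* lies at chr14:54932695-54935837 (+ strand, GRCm38). It had a lowest value of 112, a median of 146 and a highest value of 437 CPM over the 7 brush libraries, and 0 counts in all 7 EpCAM+ and all 4 CD45+ libraries. The brush mean was 213 ± 119 CPM (SD, n = 7), from 4732 counts, and 0 counts allow up to 0.0986 CPM over the EpCAM+ group and 0.172 CPM over the CD45+ group. The highest brush value came from replicate 4, one of the libraries that stand apart. *Il25* was thus at least 1620-fold higher in brush than in EpCAM+ cells (edgeR adjusted p = 3.55e-09) and at least 929-fold higher than in CD45+ cells (edgeR adjusted p = 5.57e-08). It passed the filter through brush libraries alone, so a difference was built into its passing.

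IL-25 binds IL-17RB, which signals together with IL-17RA, and the specific chain was itself a brush cell transcript. *Il17rb* ranged from 116 to 174 CPM with a median of 126 in brush libraries, from 0 to 1.35 with a median of 1.06 in EpCAM+ libraries and from 2.49 to 20.04 in CD45+ libraries. The 3 groups did not overlap. The log2 fold change was 7.46 ± 0.54 (SE) for brush over EpCAM+ cells (edgeR adjusted p = 2.45e-10) and 3.85 ± 0.56 for brush over CD45+ cells (edgeR adjusted p = 4.42e-06). The shared chain *Il17ra* averaged 15.8 ± 4.34 CPM in brush cells, 15.02 ± 6.64 in EpCAM+ cells and 104 ± 32.8 in CD45+ cells (SD), a log2 fold change of -2.70 ± 0.35 for brush over CD45+ cells (edgeR adjusted p = 8.44e-07). Brush and EpCAM+ cells were not distinguished in *Il17ra* (log2 fold change 0.09 ± 0.31, edgeR adjusted p = 0.853).

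**Figure D2:**
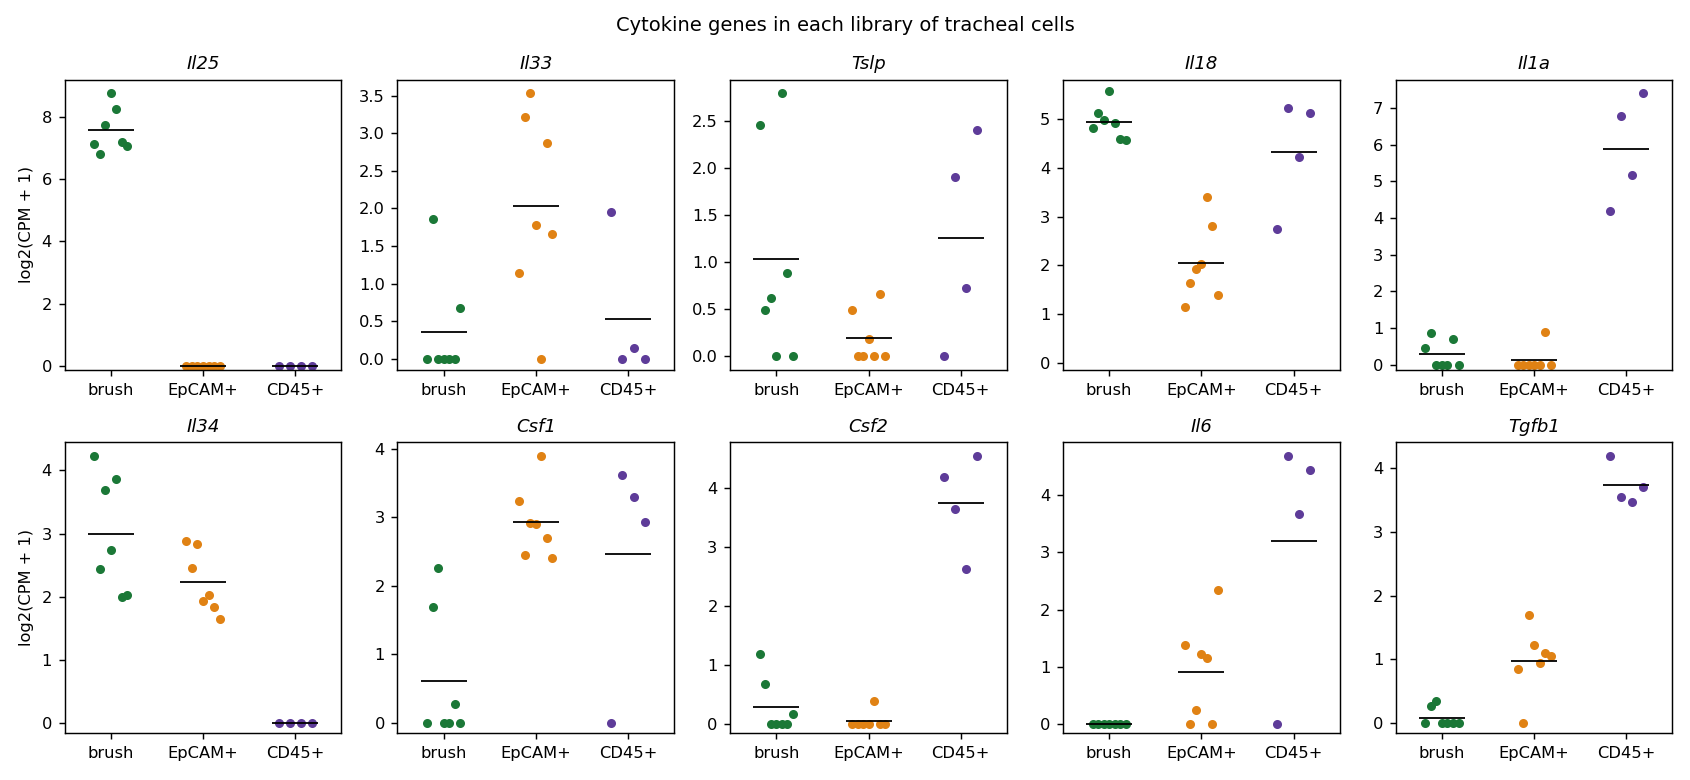
Level of each cytokine gene in every library (y axis, log2(CPM + 1), a separate scale in each panel), for brush (n = 7), EpCAM+ (n = 7) and CD45+ (n = 4) libraries. Points are libraries and lines are means. *Il25* is at 0 in every EpCAM+ and CD45+ library, *Il34* in every CD45+ library and *Il6* in every brush library.

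*Il18* (chr9:50554827-50581840, + strand) encodes a precursor that caspase-1 cleaves to the active cytokine. Brush libraries had a lowest value of 22.7, a median of 29.4 and a highest value of 47.1 CPM, EpCAM+ libraries had 1.203, 2.79 and 9.56 CPM, and CD45+ libraries had 5.75, 36.6, 17.6 and 34.0 CPM. In CPM every brush library lay above every EpCAM+ library, as did those of *Il25*. *Csf1* had no overlap in CPM between these groups in the opposite direction. Of all genes tested, 20.3% had groups without overlap in this comparison. The CD45+ libraries of *Il18* overlapped with both other groups. *Il18* was 2.99 ± 0.42 higher in brush than in EpCAM+ cells on the log2 scale (edgeR adjusted p = 3.33e-06) and the log2 fold change of EpCAM+ over CD45+ cells was -2.74 ± 0.45 (edgeR adjusted p = 2.46e-05). Brush and CD45+ cells were not distinguished, at 0.26 ± 0.45 (edgeR adjusted p = 0.672), and without the 3 libraries that stand apart the sign turned (-0.04). The lowest CD45+ value is from replicate 1.

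How *Il18* reads were assigned bears on these values. The gene overlaps *Bco2* and *Tex12* on the opposite strand, and no source used here gives the strand setting. *Bco2* had 51 counts in brush, 54 in EpCAM+ and 220 in CD45+ libraries, and *Tex12* had 14, 0 and 7, against 808, 109 and 444 counts of *Il18*. The count table holds 1.98 times as many *Il18* counts as the RSEM tables, the largest such ratio among the 10 genes. In TPM from RSEM, which scales counts to transcript length and library size, *Il18* averaged 45.7 ± 9.76 in brush and 4.52 ± 2.60 in EpCAM+ cells (SD, n = 7 each), and an exact two-sided permutation test of log2(TPM + 1) gave an adjusted p = 0.00874. The same test gave an adjusted p = 0.205 for EpCAM+ against CD45+ cells. There CD45+ replicate 1, the shallowest library, was at 0 TPM and the other CD45+ libraries at 24.7 to 40.5. The lower level in EpCAM+ cells was called in the counts and in every alternative, RSEM counts included, but not by permutation of TPM.

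Of 18 tested genes that process, release or neutralize IL-1 family cytokines, 3 were higher and 5 lower in brush than in EpCAM+ cells (median log2 fold change -0.02), beside 18.3% higher and 22% lower over all genes tested, so these shares were near the background. Against CD45+ cells 1 was higher and 14 lower (median -2.66), beside 23.4% and 22.4% over all genes. Genes such as *Nlrp3*, with 3 counts in brush, 0 in EpCAM+ and 1052 in CD45+ libraries, could pass the filter only through CD45+ libraries. The IL-18 inhibitor was the 1 gene higher against both EpCAM+ and CD45+ cells. *Il18bp*, the soluble binding protein that blocks IL-18, averaged 23.5 ± 13.6 CPM in brush cells, 2.30 ± 1.57 in EpCAM+ cells and 9.45 ± 6.14 in CD45+ cells. Its log2 fold change was 3.33 ± 0.51 over EpCAM+ cells (edgeR adjusted p = 1.29e-05) and 1.51 ± 0.60 over CD45+ cells (edgeR adjusted p = 0.0439), so ligand and inhibitor were both higher in brush than in EpCAM+ cells.

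Of the activating machinery, *Casp1*, *Pycard*, *Gsdmd* and *Casp4* were lower in brush than in EpCAM+ cells. *Casp1*, which cleaves IL-18, averaged 13.5 ± 6.54 CPM in brush cells, 28.6 ± 9.04 in EpCAM+ cells and 76.0 ± 41.5 in CD45+ cells, with a log2 fold change of -1.17 ± 0.33 for brush over EpCAM+ cells (edgeR adjusted p = 0.00622). The inflammasome adaptor *Pycard* averaged 40.8 ± 20.5 CPM in brush and 131 ± 121 in EpCAM+ cells (log2 fold change -1.73 ± 0.43). EpCAM+ replicate 5, which stands apart, was at 399 CPM and the other EpCAM+ libraries at 54.8 to 133. Brush replicate 4, at 84.8 CPM, overlapped with them. The pore protein *Gsdmd*, through which IL-1 family cytokines can leave the cell, averaged 0.907 ± 0.840 CPM in brush, 7.67 ± 2.69 in EpCAM+ and 106 ± 33.2 in CD45+ cells (-2.84 ± 0.46 for brush over EpCAM+ cells). The largest difference from EpCAM+ cells was in *Casp4*, mouse caspase-11, a sensor of cytosolic lipopolysaccharide, with 3.03 ± 1.98 CPM in brush and 67.9 ± 40.9 in EpCAM+ cells (-4.66 ± 0.47). *Casp8* and *Ninj1*, genes of cell death and membrane rupture, were the other 2 higher in brush than in EpCAM+ cells, at log2 fold changes of 0.94 ± 0.26 and 1.32 ± 0.40, and both were lower than in CD45+ cells.

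The receptor of IL-18 was placed differently from its ligand. *Il18r1*, the ligand-binding chain, averaged 11.8 ± 3.81 CPM in brush cells, 46.1 ± 12.8 in EpCAM+ cells and 21.6 ± 12.5 in CD45+ cells, and was lower in brush than in EpCAM+ cells by a log2 fold change of -1.97 ± 0.32 (edgeR adjusted p = 2.32e-05). The accessory chain *Il18rap*, which signalling requires, had 1 count in brush, 2 in EpCAM+ and 283 in CD45+ libraries and did not pass the filter.

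*Il33* (chr19:29925114-29960718, + strand), a nuclear alarmin, was an EpCAM+ transcript of low level and wide spread. It was counted in 2 of 7 brush libraries, at 2.63 and 0.595 CPM. EpCAM+ libraries had a lowest value of 0, a median of 2.43 and a highest value of 10.6 CPM, and CD45+ libraries had 2.87, 0, 0.110 and 0 CPM. The groups overlapped in each comparison. *Il33* was lower in brush than in EpCAM+ cells by a log2 fold change of -2.92 ± 0.95 (edgeR adjusted p = 0.0164), which became -4.49 without brush replicate 2, whose removal left a brush mean of 0.0992 CPM.

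Against CD45+ cells, which gave 2 *Il33* counts in all, the ratio was 42.1 for EpCAM+ cells (exact 95% interval 11.5 to 351, counting error only; edgeR adjusted p = 0.0153) and 5.3 for brush cells (1.27 to 47.1; edgeR adjusted p = 0.347). The EpCAM+ call was lost without CD45+ replicate 2, 3 or 4, at adjusted p values of 0.0661 to 0.0706. In TPM the permutation test gave adjusted p = 0.0688 for brush against EpCAM+ cells and 0.0861 for EpCAM+ against CD45+ cells. *Il1rl1*, which encodes the IL-33 receptor ST2, had 2 counts in brush, 2 in EpCAM+ and 683 in CD45+ libraries, so CD45+ cells exceeded brush cells 580-fold (160 to 4800).

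*Tslp* (chr18:32815383-32819797, + strand), an epithelial alarmin that acts on dendritic and innate lymphoid cells, was scarce and uneven. Brush libraries ranged from 0 to 5.99 CPM with a median of 0.542, EpCAM+ libraries from 0 to 0.577 with a median of 0, and CD45+ libraries had 0, 2.74, 0.657 and 4.32 CPM. Among brush libraries, replicates 1 and 5 had 4.53 and 5.99 CPM and no other reached 1 CPM. With no filter on low counts, over 22229 genes, *Tslp* was higher in brush than in EpCAM+ cells at a log2 fold change of 3.43 ± 1.05 (edgeR adjusted p = 0.0131) and lower in EpCAM+ than in CD45+ cells at -3.69 ± 1.13 (edgeR adjusted p = 0.0120). In TPM neither comparison passed, with permutation adjusted p = 0.131 and 0.0952.

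*Tslp* overlaps the non-coding *4930455D15Rik* on the opposite strand. That gene had 30 counts in brush, 2 in EpCAM+ and 0 in CD45+ libraries, against 44, 4 and 34 counts of *Tslp*, and without a strand setting the brush values of either are uncertain. Both parts of the TSLP receptor were leukocyte transcripts. *Crlf2* averaged 0.308 ± 0.392 CPM in brush, 1.60 ± 1.33 in EpCAM+ and 13.9 ± 6.14 in CD45+ cells, with log2 fold changes of -1.97 ± 0.65 for brush over EpCAM+ cells (edgeR adjusted p = 0.0190) and -5.12 ± 0.69 for brush over CD45+ cells (edgeR adjusted p = 1.73e-06). *Il7r*, the second chain, had 0 counts in brush, 1 in EpCAM+ and 2227 in CD45+ libraries, at least 1260-fold lower in brush than in CD45+ cells.

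**Figure D3:**
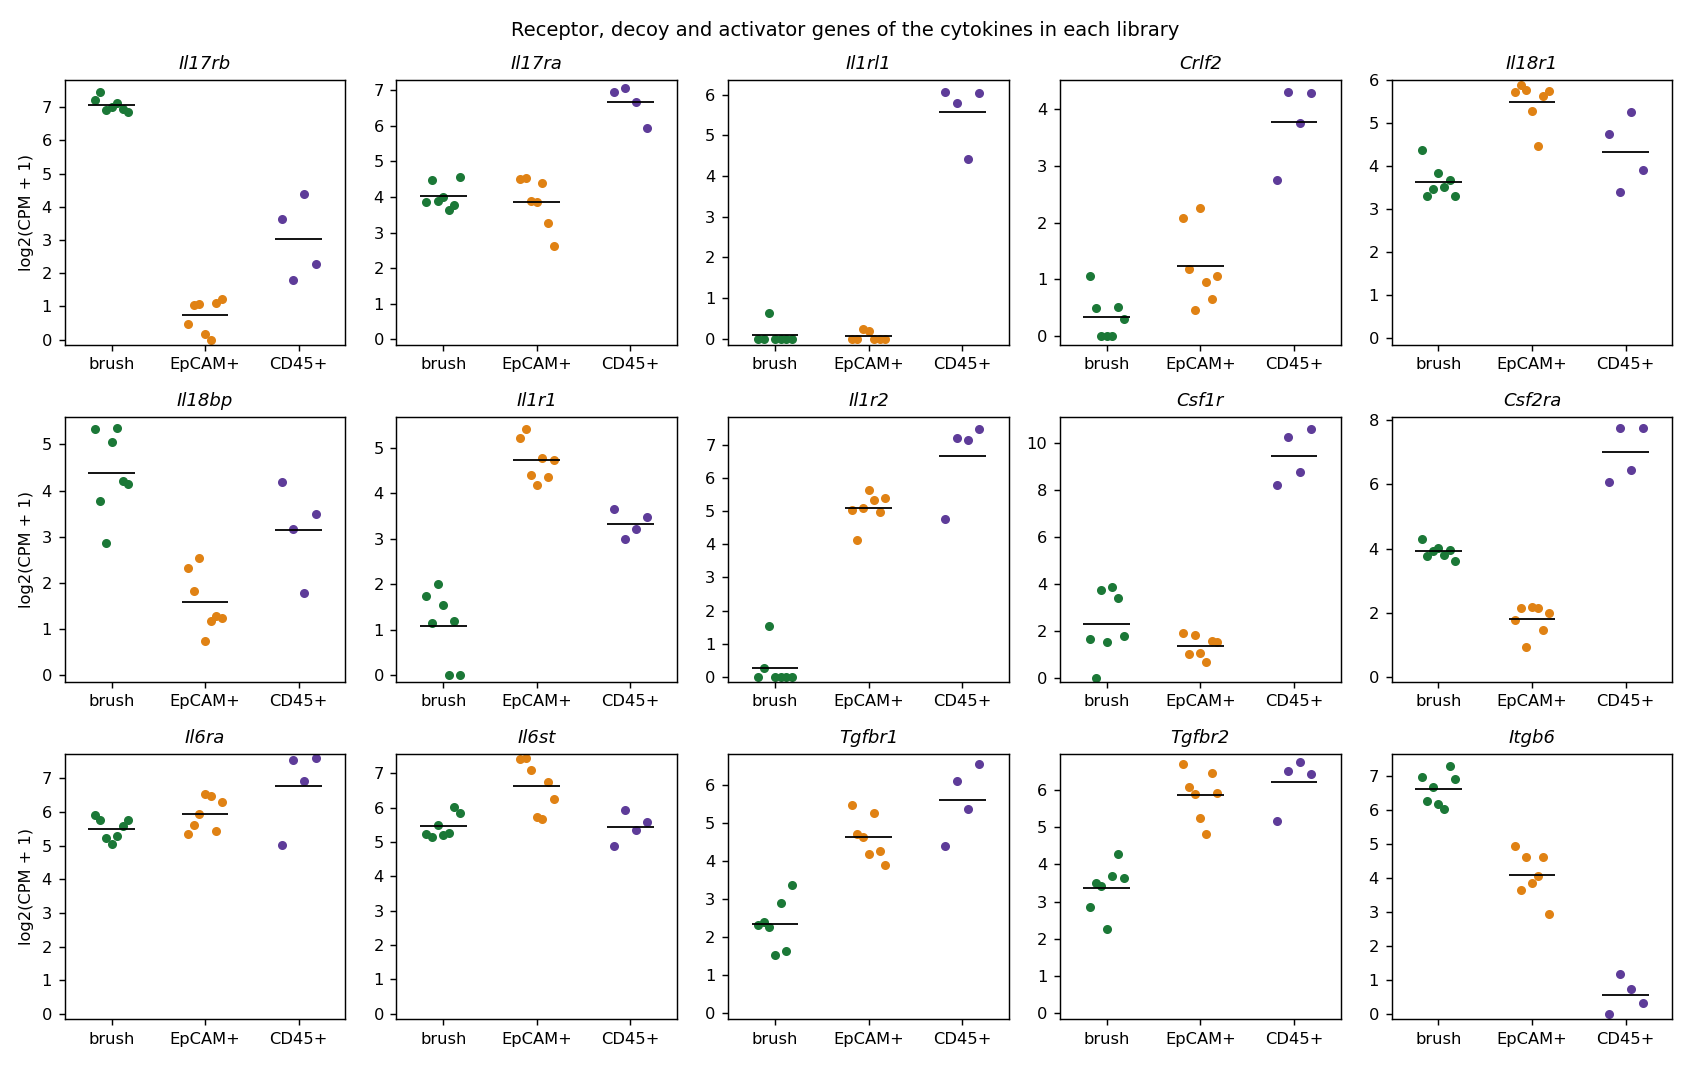
Receptor, decoy and activator genes of the cytokines in every library (y axis, log2(CPM + 1), a separate scale in each panel), for brush (n = 7), EpCAM+ (n = 7) and CD45+ (n = 4) libraries, with lines at the means. *Il17rb* and *Itgb6* are highest in brush libraries, and *Il1r1* is lower in every brush library than in every EpCAM+ and CD45+ library.

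*Il1a* (chr2:129299610-129309972, - strand) encodes IL-1α, active without cleavage when cells rupture, and was a CD45+ transcript in these samples. Brush libraries ranged from 0 to 0.811 CPM with a median of 0, EpCAM+ libraries were at 0 except replicate 6 (0.865 CPM), and CD45+ libraries had 17.2, 109, 34.8 and 167 CPM. In CPM, CD45+ libraries lay above all others, as they did for *Csf2* and *Tgfb1*. Of all genes tested, 30.5% had no overlap between brush and CD45+ cells and 27.2% between EpCAM+ and CD45+ cells. *Il1a* passed the filter through CD45+ libraries alone, so a difference from CD45+ cells was built into its passing. The log2 fold change was -7.96 ± 0.75 for brush over CD45+ cells (edgeR adjusted p = 7.22e-09), or -7.36 without CD45+ replicate 4. The CD45+ to EpCAM+ ratio was 827 (283 to 4020; edgeR adjusted p = 2.61e-09), with all 3 EpCAM+ counts from replicate 6. Brush and EpCAM+ cells, with 9 and 3 counts in all, were not distinguished (edgeR adjusted p = 0.352). *Gm14023* overlaps on the opposite strand, with 41 counts in brush, 23 in EpCAM+ and 72 in CD45+ libraries.

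The IL-1 receptor genes did not move together. The signalling receptor *Il1r1* averaged 1.39 ± 1.13 CPM in brush, 26.5 ± 9.11 in EpCAM+ and 9.21 ± 2.01 in CD45+ cells, a log2 fold change of -4.27 ± 0.52 for brush over EpCAM+ cells (edgeR adjusted p = 5.83e-07). The decoy receptor *Il1r2* averaged 0.300 ± 0.708 CPM in brush, 34.5 ± 10.4 in EpCAM+ and 123 ± 66.4 in CD45+ cells (-6.76 ± 0.68 for brush over EpCAM+ cells, edgeR adjusted p = 3.26e-08). The accessory chain *Il1rap*, which IL-1 and IL-33 signalling share, averaged 14.5 ± 4.94 CPM in brush, 7.97 ± 5.17 in EpCAM+ and 8.56 ± 6.22 in CD45+ cells, with no call for brush over EpCAM+ cells (log2 fold change 0.91 ± 0.41, edgeR adjusted p = 0.0797). *Capn2*, a calpain of the kind that processes IL-1α, averaged 26.8 ± 8.88 CPM in brush and 103 ± 54.3 in EpCAM+ cells (-1.91 ± 0.40). *Il1b*, the other IL-1 receptor agonist, had 0 counts in brush, 4 in EpCAM+ and 33049 in CD45+ libraries, at least 18700-fold lower in brush than in CD45+ cells.

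Of the CSF1R ligands, *Csf1* was lower in brush than in EpCAM+ cells and *Il34* had no call between them. *Il34* (chr8:110741829-110805924, - strand) ranged from 2.99 to 17.8 CPM with a median of 5.66 in brush libraries and from 2.16 to 6.41 with a median of 3.09 in EpCAM+ libraries, and had 0 counts in all 4 CD45+ libraries, which allows up to 0.172 CPM. Every epithelial library lay above every CD45+ library, while brush and EpCAM+ libraries overlapped. *Il34* was at least 45.5-fold higher in brush (edgeR adjusted p = 5.17e-06) and at least 22.5-fold higher in EpCAM+ cells (edgeR adjusted p = 3.94e-05) than in CD45+ cells. Between brush and EpCAM+ cells the log2 fold change was 1.11 ± 0.48 (edgeR adjusted p = 0.0695), and it passed the threshold without brush replicate 6 or 7, at adjusted p values of 0.0377 and 0.0455. Antisense genes overlap *Il34* and were not among the symbols of the count table.

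*Csf1* lies at chr3:107741048-107760469 (- strand). Brush libraries ranged from 0 to 3.79 CPM with a median of 0, EpCAM+ libraries from 4.31 to 13.9 with a median of 6.47, and CD45+ libraries had 0, 11.2, 8.76 and 6.60 CPM. In CPM no brush library reached an EpCAM+ library, and the CD45+ value of 0 came from replicate 1. In TPM the brush and EpCAM+ groups overlapped, with brush replicates 2 and 3 at 1.48 and 1.75 and EpCAM+ libraries at 1.17 to 2.77. The log2 fold change was -2.81 ± 0.76 for brush over EpCAM+ cells (edgeR adjusted p = 0.00458) and -2.92 ± 0.83 for brush over CD45+ cells (edgeR adjusted p = 0.00576), and these became -3.81 and -3.86 without brush replicate 3. EpCAM+ and CD45+ cells were not distinguished (-0.10 ± 0.76, edgeR adjusted p = 0.938), and the sign of that small difference changed with the processing. In TPM the brush and CD45+ groups were not separated (permutation adjusted p = 0.182).

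Their receptor *Csf1r* averaged 6.10 ± 5.74 CPM in brush, 1.72 ± 0.830 in EpCAM+ and 883 ± 609 in CD45+ cells. It was higher in brush than in EpCAM+ cells at a log2 fold change of 1.84 ± 0.65 (edgeR adjusted p = 0.0270) and lower than in CD45+ cells at -7.16 ± 0.74 (edgeR adjusted p = 3.19e-08). The 10 macrophage and dendritic cell markers, *Csf1r* among them, summed to 14.4 to 46.3 CPM in brush, 5.93 to 23.4 in EpCAM+ and 2675 to 10893 in CD45+ libraries. Of these, 5 were higher and none lower in brush than in EpCAM+ cells by edgeR, beside 18.3% and 22% over all genes tested. In brush libraries 2 of them were at 0, and in EpCAM+ libraries 5. The part of such cells in the *Csf1r* difference was not tested.

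*Csf2* (chr11:54247271-54249667, - strand) encodes GM-CSF. Brush libraries ranged from 0 to 1.27 CPM with a median of 0, EpCAM+ libraries were at 0 except replicate 5 (0.309 CPM), and CD45+ libraries had 17.2, 11.5, 5.15 and 22.4 CPM. In CPM all CD45+ libraries lay above all others, as they did for *Il1a* and *Tgfb1*. *Csf2* passed the filter through CD45+ libraries alone, so a difference from CD45+ cells was built into its passing. The log2 fold change was -5.15 ± 0.78 for brush over CD45+ cells (edgeR adjusted p = 7.58e-06), or -6.13 without brush replicate 1, and the CD45+ to EpCAM+ ratio was 326 (57.9 to 13000; edgeR adjusted p = 3.65e-07). The brush call over EpCAM+ cells rested on 11 counts against 1, a ratio of 11.3 (1.64 to 487; edgeR adjusted p = 0.0478). It was lost in 18 of the alternatives, at adjusted p values of 0.0510 to 0.251, the highest without brush replicate 1, and the permutation test in TPM gave an adjusted p = 0.533. An antisense gene overlaps *Csf2* and was not among the symbols of the count table.

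All 3 genes of the GM-CSF and IL-3 receptors described here were lower in brush than in CD45+ cells. *Csf2ra* and *Csf2rb2* were higher in brush than in EpCAM+ cells. The α chain *Csf2ra* averaged 14.3 ± 2.33 CPM in brush, 2.62 ± 0.984 in EpCAM+ and 146 ± 81.1 in CD45+ cells, and the 3 groups did not overlap. Its log2 fold change was 2.42 ± 0.33 for brush over EpCAM+ cells (edgeR adjusted p = 2.78e-06) and -3.37 ± 0.34 for brush over CD45+ cells (edgeR adjusted p = 2.37e-08). The common β chain *Csf2rb*, needed for signalling, had 5 counts in brush, 3 in EpCAM+ and 2670 in CD45+ libraries. Its near-identical mouse copy *Csf2rb2*, an IL-3 receptor chain, had 72, 1 and 707 counts, and how reads were split between the copies is not known. The brush to EpCAM+ ratio of *Csf2rb2* was 74 (12.9 to 2960; edgeR adjusted p = 1.96e-07).

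*Il6* (chr5:30013114-30019981, + strand), a cytokine of acute inflammation, had 0 counts in all 7 brush libraries, which allows up to 0.101 CPM over the group. EpCAM+ libraries ranged from 0 to 4.04 CPM with a median of 1.23, and CD45+ libraries had 0, 24.7, 11.7 and 20.6 CPM. EpCAM+ replicates 2 and 6 and CD45+ replicate 1 were at 0 counts, so each pair of groups overlapped. *Il6* was at least 11-fold lower in brush than in EpCAM+ cells (edgeR adjusted p = 0.00536) and at least 162-fold lower than in CD45+ cells (edgeR adjusted p = 2.18e-05). The brush call against EpCAM+ cells was lost with limma-voom (adjusted p = 0.0644). In EpCAM+ over CD45+ cells the log2 fold change was -3.68 ± 0.86 (edgeR adjusted p = 0.00202).

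The IL-6 receptor chains differed less. *Il6ra* averaged 45.5 ± 10.1 CPM in brush, 64.3 ± 22.0 in EpCAM+ and 132 ± 74.5 in CD45+ cells, with no call between brush and EpCAM+ cells (-0.49 ± 0.31, edgeR adjusted p = 0.228). *Il6st*, which encodes gp130, averaged 44.0 ± 11.5 CPM in brush, 108 ± 51.9 in EpCAM+ and 43.8 ± 13.1 in CD45+ cells, a log2 fold change of -1.29 ± 0.30 for brush over EpCAM+ cells (edgeR adjusted p = 0.00142). Beside *Il6*, which is known to be induced in handled tissue, stand 14 tissue dissociation response genes such as *Fos* and *Jun*. Their summed CPM was 3108 to 4430 in brush, 15837 to 31908 in EpCAM+ and 3988 to 19935 in CD45+ libraries. By edgeR, 13 of the 14 were lower in brush than in EpCAM+ cells, beside 22% of all genes tested. Their part in the *Il6* difference was not tested.

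*Tgfb1* (chr7:25687002-25705077, + strand) had 2 counts in the brush group, at 0.203 and 0.271 CPM in replicates 2 and 3. EpCAM+ libraries ranged from 0 to 2.23 CPM with a median of 1.08, and CD45+ libraries had 17.2, 10.7, 10.1 and 11.9 CPM. In CPM all CD45+ libraries lay above the rest. They did not in TPM, where CD45+ replicate 1 was at 1.38, below EpCAM+ replicates 1 and 3 (2.11 and 1.83) and brush replicate 2 (1.49). *Tgfb1* passed the filter through CD45+ libraries alone, so a difference from CD45+ cells was built into its passing. The EpCAM+ to brush ratio was 17 (4.37 to 146; edgeR adjusted p = 0.00106) and the CD45+ to brush ratio was 160 (43.6 to 1330; edgeR adjusted p = 1.93e-07). EpCAM+ cells were lower than CD45+ cells at a log2 fold change of -3.42 ± 0.61 (edgeR adjusted p = 6.89e-05). In TPM the brush and EpCAM+ groups were not separated (permutation adjusted p = 0.0699).

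Another TGF-β isoform was higher in brush cells than in both other groups. *Tgfb3* averaged 25.4 ± 9.49 CPM in brush, 10.2 ± 3.65 in EpCAM+ and 7.73 ± 1.59 in CD45+ cells, with log2 fold changes of 1.33 ± 0.28 for brush over EpCAM+ cells (edgeR adjusted p = 0.000484) and 1.67 ± 0.36 for brush over CD45+ cells (edgeR adjusted p = 0.000511). It was the 1 related cytokine higher in brush than in EpCAM+ cells and is named after its values were seen. *Tgfb2* averaged 1.11 ± 1.87 CPM in brush and 9.09 ± 2.74 in EpCAM+ cells (-3.05 ± 0.78).

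Latent TGF-β is stored on binding proteins and released by integrins, and of 13 such genes tested 1 was higher and 5 were lower in brush than in EpCAM+ cells (median log2 fold change -1.10), beside 18.3% higher and 22% lower over all genes tested. The higher one was *Itgb6*, the β chain of the activating integrin αvβ6, at 102 ± 33.1 CPM in brush, 17.7 ± 8.11 in EpCAM+ and 0.539 ± 0.543 in CD45+ cells. Its log2 fold change was 2.53 ± 0.33 for brush over EpCAM+ cells (edgeR adjusted p = 1.26e-06) and 7.16 ± 0.59 for brush over CD45+ cells (edgeR adjusted p = 1.05e-09). The partner chain *Itgav* averaged 5.10 ± 2.30 CPM in brush, 21.7 ± 11.6 in EpCAM+ and 10.9 ± 3.61 in CD45+ cells (-2.15 ± 0.41 for brush over EpCAM+ cells), so the 2 chains differed in opposite directions. *Ltbp4*, a storage protein, averaged 3.13 ± 1.96 CPM in brush and 141 ± 20.1 in EpCAM+ cells (-5.62 ± 0.36), and the protease *Mmp2* averaged 0.382 ± 0.693 and 5.24 ± 2.17 CPM in those groups (-3.47 ± 0.66).

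All 3 TGF-β receptor genes were lower in brush than in EpCAM+ cells. *Tgfbr1* averaged 4.57 ± 2.63 CPM in brush, 25.9 ± 11.2 in EpCAM+ and 55.9 ± 32.4 in CD45+ cells (-2.41 ± 0.39 for brush over EpCAM+ cells, edgeR adjusted p = 2.13e-05). *Tgfbr2* averaged 10.3 ± 4.63, 62.1 ± 26.0 and 78.6 ± 30.7 CPM in the same groups (-2.54 ± 0.34, edgeR adjusted p = 2.33e-06). The co-receptor *Tgfbr3* averaged 1.52 ± 1.13 CPM in brush and 20.4 ± 7.68 in EpCAM+ cells (-3.69 ± 0.75, edgeR adjusted p = 0.00036). Over all 18 receptor and decoy genes tested, 4 were higher and 8 lower in brush than in EpCAM+ cells (median log2 fold change -0.79), beside 18.3% and 22% over all genes tested. Against CD45+ cells 1 was higher and 14 lower (median -3.14), beside 23.4% and 22.4% over all genes. Genes such as *Il7r* and *Il1rl1* passed the filter through CD45+ libraries alone, so their lower level in brush cells was built in.

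Cytokines related by family followed in smaller number. Of 31 listed, 26 were in the count table and 10 were tested. Of the tested genes, 1 was higher and 4 were lower in brush than in EpCAM+ cells (18.3% and 22% over all genes tested). Against CD45+ cells 2 were higher and 6 lower (23.4% and 22.4% over all genes). Genes such as *Il1b* and *Osm* passed the filter through CD45+ libraries alone, so their lower level in brush cells was built in. *Osm* had 0 counts in brush, 0 in EpCAM+ and 1331 in CD45+ libraries. The EGF receptor ligand *Areg* averaged 0.234 ± 0.180 CPM in brush, 11.5 ± 4.55 in EpCAM+ and 23.5 ± 14.9 in CD45+ cells (-5.14 ± 0.50 for brush over EpCAM+ cells, edgeR adjusted p = 2.31e-08). The gp130 cytokines *Clcf1* and *Lif* were also lower in brush than in EpCAM+ cells, at log2 fold changes of -3.64 ± 0.65 and -3.17 ± 0.82.

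Levels of different genes can be compared in TPM. In brush cells *Il25* ranked highest at 279 TPM on average (184 to 355), followed by *Il18* at 45.7 (29.3 to 60.6) and *Il34* at 6.35 (1.53 to 15.4). These 3 did not overlap with one another over libraries, and below *Il34* each neighbour in the order overlapped the next, from *Tslp* at 2.00 TPM to *Il6*, listed at 0. *Il25* made up 71.8% to 89.4% of the summed TPM of the 10 genes in a brush library, with a median of 84.7%.

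The other groups had flatter orders. In EpCAM+ cells *Il18* (4.52 TPM), *Il34* (2.64), *Il33* (2.06), *Csf1* (1.90) and *Il6* (1.15) led, and every neighbour overlapped the next. In CD45+ cells *Il1a* (36.4 TPM), *Il18* (25.9), *Il6* (15.5), *Csf2* (15.3) and *Tgfb1* (5.60) led, again with every neighbour overlapping. Of these, *Tgfb1* (0.257 TPM), *Il1a* (0.164) and *Il6* (listed at 0) were the lowest of the 10 in brush cells, while *Csf2* (0.519) stood in the middle of the brush order, above *Csf1* (0.461) and *Il33* (0.289).

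**Figure D4:**
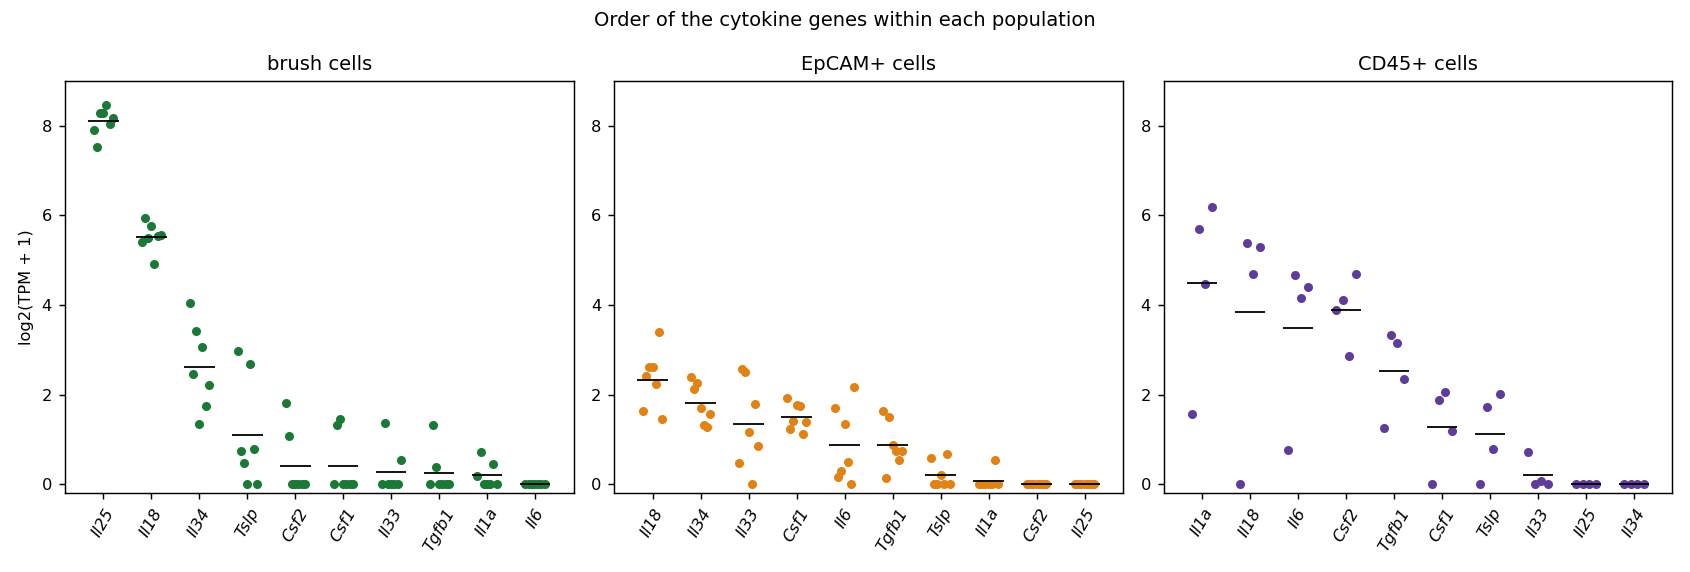
The 10 cytokine genes in order of mean TPM within brush (n = 7), EpCAM+ (n = 7) and CD45+ (n = 4) libraries (y axis, log2(TPM + 1), the same scale in all panels). Points are libraries and lines are means of the log values. In brush libraries *Il25* (184 to 355 TPM) lies above *Il18* (29.3 to 60.6 TPM), and both lie above every other gene.

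The genes most like each cytokine over the 18 libraries were found by Pearson's r of log2(CPM + 1) among about 12060 genes. The libraries share their groups, so r mostly follows the group means and is given as a description. *Il25* was most like *Ovol3* (0.998), *Gm20757* (0.997) and *Hmx3* (0.996), *Il18* most like *Syne3* (0.958), *Mcub* (0.931) and *Foxd2os* (0.920), and *Il34* most like *Ccdc159* (0.901), *4833423E24Rik* (0.894) and *Nrbp2* (0.893). *Il33* had no close match, its highest being *Muc16* (0.781), *Alox12e* (0.776) and *Ces1e* (0.775). *Csf1* was most like *Mxd3* (0.919), *Spag5* (0.917) and *Ggt5* (0.901).

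The CD45+ cytokines each had CD45+ neighbours. *Il1a* was most like *Slamf8* (0.993), *Klrb1b* (0.993) and *Fcgr2b* (0.992), and *Csf2* most like *Cd209f*, *Ms4a7* and *Wfdc17* (0.980 each). *Il6* was most like *Adora2a* (0.934), *Cd80* (0.930) and *Ugt1a7c* (0.915), and *Tgfb1* most like *Trim30d* (0.976), *Mndal* (0.967) and *Inpp4b* (0.963).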

How the data were processed

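RNA was sequenced from brush, EpCAM+ and CD45+ cells of mouse trachea. Digestion was by dispase followed by papain, and living cells (propidium iodide negative) were sorted into lysis buffer, per the labels' protocols. The authors deposited a table of raw read counts per gene symbol for all 18 libraries. RSEM tables, 1 per library, give expected counts, rounded here, and TPM, per the file headers, as the authors deposited them. A deposited table of normalized counts was not used here. The submitters' processing notes name build mm10 and, with no order, RSEM 1.2.21, STAR 2.4.2a, DESeq2, featureCounts and Picard. Which annotation and strand setting were used for counting is not given in the sources used here.

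The members and gene lists were chosen with earlier results of these data known. Counts were tested with edgeR 4.0.16 in R 4.3.3 (quasi-likelihood F test, TMM scaling, filterByExpr by group), in 1 fit over all 18 libraries with group as the only term. The filter kept 13418 genes and removed 12909. P-values were adjusted by Benjamini-Hochberg over all genes tested and genes were called below 0.05. Standard errors are the absolute log2 fold change over the square root of F. Levels are CPM at TMM library size. A group at 0 counts was set at 3 counts over the group to give a bound, and a group with 1 to 3 counts got a ratio with an exact 95% interval. Intervals and bounds cover counting error only, since reads are not independent molecules. TPM was compared by exact two-sided permutation of mean log2(TPM + 1) in SciPy 1.17.1, adjusted over 30 tests, where the smallest possible unadjusted p was 0.000583 for 7 against 7 libraries and 0.00606 for 7 against 4.

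The rule for named genes was all 10 members, the receptor or processing genes of each, and from each list up to 4 called genes of largest change between brush and EpCAM+ cells with a mean of at least 5 CPM in 1 group. For likeness it was the 3 genes of highest r with that mean. The 4 ribosomal RNA genes took 24% to 63.5% of counts in brush, 12.2% to 34.1% in EpCAM+ and 20.7% to 43.4% in CD45+ libraries, which lowers the effective depth, and were left out in an alternative. Libraries of a group differed by at least 6.11 in chi-square per degree of freedom, so none was taken for a copy. RSEM identifiers numbered 47729, of which 47224 had a symbol and 24712 symbols were shared with the count table. Coordinates are from GENCODE vM21 (GRCm38), and upstream windows from RefSeq (GRCm38.p6). The fit was tested on simulated data. Alternatives were other scaling, filters and tools (limma-voom 3.58.1, DESeq2 1.42.0), RSEM counts, fewer samples, a replicate block and leaving out each library.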

Additional observations from a re-analysis of the deposited data

Results flagged for a closer look

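In 6 of 26 sets of libraries examined, 1 library lay farther from its group than Dixon's 95% limit allows, where chance alone flags about 1 set in 20 of values that vary continuously. That rate does not hold at counts near 0, where a single library with a count is flagged whatever its value if all others are at 0. *Il33* was 2.63 CPM in brush replicate 2, against 0 to 0.595 CPM in the other brush libraries, and 2.87 CPM in CD45+ replicate 1, against 0 to 0.110 CPM in the other CD45+ libraries. The second of these values is a single count in the shallowest library. *Csf1* was 13.9 CPM in EpCAM+ replicate 5, a library that stands apart, against 4.31 to 8.42 CPM in the others. *Il6* was 4.04 CPM in EpCAM+ replicate 7, against 0 to 1.60 CPM. *Il1a* at 0.865 CPM in EpCAM+ replicate 6 and *Csf2* at 0.309 CPM in EpCAM+ replicate 5 were flagged for that reason, each the only EpCAM+ library with a count of the gene.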

How the results depend on the processing

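Of the log2 fold changes of the tested cytokine genes under the alternatives, 699 kept their direction and side of the threshold, 22 lost and 2 gained a call, and 7 changed sign. Between brush and EpCAM+ cells, 7 genes were called, against 4 of the 6 tested with a mean of at least 10 CPM and 3 of the 4 tested when only these groups were fitted, where fewer genes passed the filter. Leaving out each library in turn gave 5 to 8 genes called in that comparison, 6 to 7 for brush against CD45+ cells and 6 to 8 for EpCAM+ against CD45+ cells. All genes called then ranged from 4788 to 5881, from 5687 to 6586 and from 4943 to 5784. The permutation tests called 15 of 30, and 12 to 17 with 1 library left out.

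The sign changes concerned differences that passed no test. *Il18* in brush over CD45+ cells was -0.043 without the 3 libraries that stand apart. *Csf1* in EpCAM+ over CD45+ cells, -0.10 in the reported fit, was 0.0025 with DESeq2 size factors, 0.079 with DESeq2, 0.18 with RSEM counts, 0.72 with the replicate block and from -0.36 to 0.18 with 1 library left out, with a positive sign (0.18 and 0.061) without CD45+ replicate 2 or 3. The cause was not tested.

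Fitted log2 fold changes against a group at 0 counts had wide ranges over the alternatives and are not read as sizes, at -5.76 to -2.12 for *Il6* in brush over EpCAM+ cells, -9.84 to -6.51 for *Il6* in brush over CD45+ cells and 5.16 to 8.46 for *Il34* in brush over CD45+ cells, with limma-voom at the small end of each. Values at few counts moved with 1 library. *Il1a* in brush over EpCAM+ cells, with no call, was 1.37, and 0.84 without brush replicate 2 and 3.56 without EpCAM+ replicate 6. *Il33* in brush over CD45+ cells, also with no call, was 1.89, and 0.34 without brush replicate 2 and 2.86 without CD45+ replicate 1. *Il33* in EpCAM+ over CD45+ cells was 4.81, and 5.79 without CD45+ replicate 1. *Il1a* in EpCAM+ over CD45+ cells was -9.33, and -11.52 without EpCAM+ replicate 6 and -8.73 without CD45+ replicate 4. *Csf2* was 2.62 in brush over EpCAM+ cells, and 1.58 without brush replicate 1 and 3.76 without EpCAM+ replicate 5, and in EpCAM+ over CD45+ cells it was -7.77, and -8.91 without EpCAM+ replicate 5.

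The replicate numbers share nothing in the labels but the number. The deviations of same-numbered libraries correlated at -0.098 to 0.273 between brush and EpCAM+ cells, -0.225 to 0.119 between brush and CD45+ cells and -0.209 to 0.298 between EpCAM+ and CD45+ cells. Correlations above 0.1 were seen in 4 of 7, 1 of 4 and 2 of 4 pairs. Libraries of different numbers were not correlated for reference, so these values cannot decide whether the numbers pair libraries. The reported fit does not pair them. With the replicate block, 6, 7 and 7 cytokine genes were called in the 3 comparisons, *Csf2* between brush and EpCAM+ cells being lost (adjusted p = 0.0747), and 5035, 5566 and 4781 genes in all. Depth limits *Tslp*, *Il33*, *Csf2* and *Il1a* in the epithelial groups, where a few counts decide the value.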
